A study of Mus musculus with 9 samples.

Results

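Cholesterol genes were compared between dopaminergic neurons of the mouse midbrain and the whole midbrain. The 28 genes were named by symbol, as rows of the deposited table: 8 early enzymes that lead to squalene, 10 late enzymes that turn squalene into cholesterol, 5 regulators, and 5 genes of sterol uptake, transport, storage, efflux and turnover. Each symbol matched 1 of the 24487 rows, and all 28 were among the 13106 genes tested. Several further genes of the pathway are not analysed here. The study holds 5 RNA sequencing libraries of whole midbrain and 4 of midbrain dopaminergic neurons, all from C57BL/6 mice with no other allele or treatment named. The labels give no age, number of animals or pooling, no transgene or promoter, and no method for obtaining the dopaminergic RNA. The deposited table carries in its name the term bacTRAP, a method that pulls tagged ribosomes, with their RNA, out of 1 cell type. Any effect of such a capture cannot be told apart from cell type. The labels do not call the libraries separate animals, so p-values measure the spread between these samples only, which may be technical.

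Cholesterol is made from acetyl-CoA by way of mevalonate, isoprenoid pyrophosphates and squalene. The brain makes its own, because lipoproteins do not cross the blood-brain barrier. Myelinating oligodendrocytes and astrocytes are the main producers in the adult, while neurons also take up sterol on apolipoprotein E particles and remove the excess as 24S-hydroxycholesterol. The pathway is switched by SREBP transcription factors, which SCAP escorts from the endoplasmic reticulum when sterol is low and which INSIG proteins hold back when it is high.

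Values are FPKM, fragment counts scaled to transcript length and library size, so levels can be set beside each other per length. A change is a difference in log2(FPKM + 1), dopaminergic neurons minus whole midbrain, tested with limma and called at an adjusted p (Benjamini-Hochberg over all genes tested) under 0.05. This scale understates the change of low genes. Taking the lowest values of single-exon receptor genes as 1 read, depth was about 47.2 to 62.6 megareads for dopaminergic neurons, where the member with the fewest reads would have about 310. The whole midbrain values carry more digits, so a lowest value there may not stand for 1 read of that library, and their depth is unknown. The dopaminergic libraries carried their label: Th and Slc6a3, which make and take up dopamine, stood at 1491 to 1722 and 1126 to 1248 FPKM against 43.7 to 51.5 and 64.5 to 77.6 in whole midbrain. All 11 astrocyte, 15 oligodendrocyte, 10 microglial and 9 vascular markers fell, as did 7 of 7 markers of other neurons. The FPKM sums of the libraries differed by group, at 506466 to 521822 in dopaminergic neurons and 309275 to 409130 in whole midbrain. Whole midbrain library 2 stood apart from its group, with an FPKM sum of 409130 where the other whole midbrain libraries had at most 313252. It was the highest or lowest of its group for 24 of the 28 members, and of all genes tested it was highest for 45.3% and lowest for 36.1%.

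Of the 28 members, 16 rose and 7 fell in dopaminergic neurons. Across all genes tested 38.3% rose and 36.0% fell. The members' median log2 change was 0.36, and the median of all genes was 0.04. Without whole midbrain library 2 the counts were 18 and 7, with a median of 0.34. Of all genes 43.6% then rose and 38.4% fell, with a median of 0.06. The groups did not overlap for 14 members that were higher and 7 that were lower, where 32.6% and 31.8% of all genes had no overlap in those directions. The direction of many small changes depended on how libraries were scaled. Rescaling to TPM left out small RNA and mitochondrial genes, brought every library to the same sum over the rest, and tested 12974 genes. The median of all genes then moved to -0.60 and that of the members to -0.30. As TPM 7 members rose and 13 fell, where 15.9% and 59.1% of all genes did. Of the called changes, 69.6% were rises as deposited and 35.0% as TPM, against 51.5% and 21.2% for all genes. Under upper-quartile scaling the median of all genes was -0.16, and 11 members rose and 7 fell, where 29.5% and 43.3% of all genes did. The members' median lay 0.32 above that of all genes as deposited and 0.30 above it as TPM. It lay 0.15 above under quantile normalization and 0.14 above at a minimum mean of 5 FPKM. Of the 26 members tested at that minimum 16 rose and 6 fell, where 48.2% and 28.8% of all genes did. In all 22 alternative settings Acat2, Mvk, Pmvk, Mvd, Fdps, Fdft1 and Stard4 were called higher. Hmgcs1, Cyp51, Srebf1, Soat1 and Cyp46a1 were called lower in all 22, and Abca1 in the 21 that tested it.

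**Figure D1:**
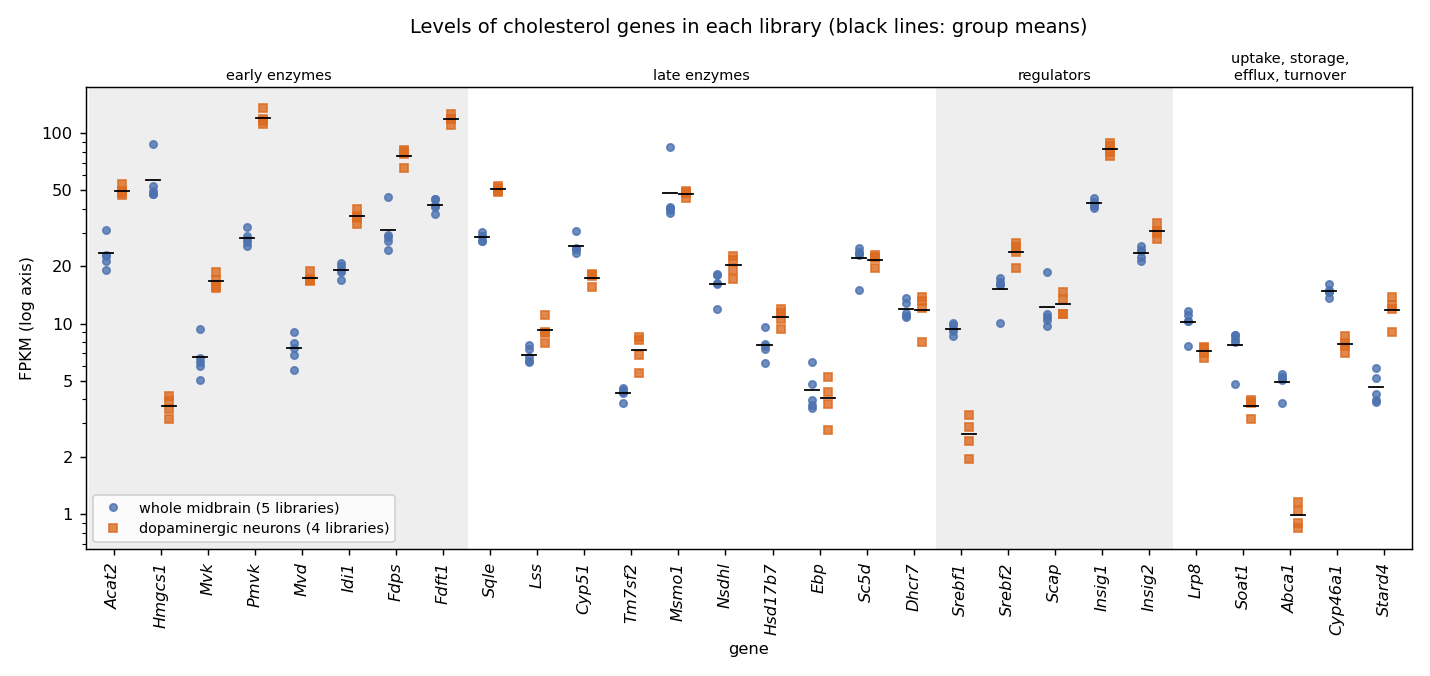
FPKM of each of the 28 genes on a log axis, by role, with 1 point per library (circles, 5 of whole midbrain; squares, 4 of dopaminergic neurons) and a black line at each group mean. Hmgcs1 has the highest mean of the 28 in whole midbrain and ranks 26 in dopaminergic neurons, below the early enzymes beside it, all of which stand higher in dopaminergic neurons.

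The early enzymes moved in opposite directions. Of the 8, 7 rose and the remaining one, Hmgcs1, fell by 3.59 on the log2 scale. Over all genes tested 38.3% rose and 36.0% fell. The median change of the 8 was 1.18, and it stood 1.14 above the median of all genes as deposited and 1.16 above it as TPM. It stood 0.74 above it under quantile normalization, 0.87 after length correction and 0.92 at a minimum mean of 5 FPKM. As TPM 6 of the 8 rose and 1 fell, where 15.9% and 59.1% of all genes did. All 8 together summed to 197 to 267 FPKM in whole midbrain libraries and to 420 to 462 in dopaminergic libraries. The 7 that rose summed to 158 ± 12.2 FPKM (SD, n = 5) in whole midbrain and to 435 ± 19.7 (SD, n = 4) in dopaminergic neurons. These 7 were picked by their rise, so their higher sum is not a separate result. Both sums are of FPKM as deposited.

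Hmgcs1 encodes the cytosolic HMG-CoA synthase, which joins acetoacetyl-CoA and acetyl-CoA (chromosome 13, 119690351 to 119708260, mm10, plus strand). It stood at 47.8, 87.4, 48.0, 49.4 and 52.5 FPKM in whole midbrain libraries 1 to 5 and at 4.17, 3.57, 3.92 and 3.14 in dopaminergic libraries 1 to 4. No dopaminergic library exceeded 4.17 and no whole midbrain library was under 47.8, so the groups were far apart. The means were 57.0 ± 17.1 (SD, n = 5) and 3.70 ± 0.445 (SD, n = 4), a 15.4-fold difference (log2 change -3.59, SE 0.17, limma adjusted p = 4.6e-08). It ranked 102 from the lowest change among the 13106 genes tested. The high value of whole midbrain library 2 did not carry the difference, since without it the log2 change was -3.43 (adjusted p = 4.7e-11, limma). Over the 22 alternatives the change ran from -4.43 to -2.80. In the GENCODE annotation 557 of the 4594 exonic bases of Hmgcs1 are shared with Gm48342, an antisense gene with no row of its own among those used here. The handling of strand is not given in the sources used here, so reads of the pair could not be separated.

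The other enzymes on the way to squalene were higher. Acat2, the cytosolic thiolase that makes the acetoacetyl-CoA used by HMG-CoA synthase, was at 22.7, 31.1, 23.0, 21.3 and 19.2 FPKM in whole midbrain and at 48.5, 47.4, 53.8 and 49.6 in dopaminergic neurons. The lowest dopaminergic library was above the highest of whole midbrain. Its log2 change was 1.07 (SE 0.12, limma adjusted p = 2.1e-05). The mevalonate kinase gene Mvk was at 6.64, 9.38, 6.31, 5.08 and 5.97 against 15.4, 15.8, 16.9 and 18.7, a change of 1.22. Pmvk, the phosphomevalonate kinase of the next step (chromosome 3, 89459118 to 89469009, plus strand), was at 25.7, 32.3, 28.9, 26.9 and 27.7 against 118, 116, 135 and 112. It had the largest rise of the 28 members at 4.26-fold (log2 change 2.05, SE 0.09, limma adjusted p = 2.3e-08), and it became the most abundant of them per length in dopaminergic neurons after ranking 7 in whole midbrain. Its change ran from 1.38 as TPM to 2.12 over the alternatives.

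Mvd, which decarboxylates the product, rose from 7.41 ± 1.23 FPKM (SD, n = 5) to 17.3 ± 0.959 (SD, n = 4). Idi1, the isopentenyl pyrophosphate isomerase, rose from 19.1 ± 1.42 to 36.5 ± 2.79, a log2 change of 0.90 that did not pass as TPM (0.23, limma adjusted p = 0.162). Fdps builds farnesyl pyrophosphate, and Fdft1, squalene synthase, commits it to sterols. Fdps was at 27.0, 46.1, 28.5, 24.5 and 29.2 FPKM in whole midbrain, where library 2 stood highest, and at 79.3, 77.3, 81.3 and 65.7 in dopaminergic neurons. Fdft1 (chromosome 14, 63145150 to 63177793, minus strand) was at 45.1, 37.6, 40.9, 42.0 and 45.2 against a mean of 118 ± 6.64 (SD, n = 4) with a lowest library of 110. These are 2.45-fold and 2.81-fold differences with log2 changes of 1.29 and 1.47 (limma adjusted p = 4.2e-05 and 9.9e-08). The exons of Fdft1 share 774 bases with Ctsb, a lysosomal protease gene on the opposite strand, which was lower in dopaminergic neurons (65.4 ± 2.91 against 91.6 ± 3.99). Exons of Fdps share 1124 of 4208 bases with Gm43738 on the same strand, and those of Idi1 share 323 of 3505 with Gm48574 on the opposite strand.

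A share within 1 library does not depend on how libraries are scaled. Hmgcs1 made up 23.7%, 32.8%, 23.8%, 25.1% and 25.2% of the summed FPKM of the 8 early enzymes in whole midbrain libraries 1 to 5. In dopaminergic libraries 1 to 4 it made up 0.930%, 0.842%, 0.848% and 0.748%. Pmvk went the other way, with 12.1% to 14.3% in whole midbrain and 26.3% to 29.2% in dopaminergic neurons. These shares were chosen after the values were seen and have no test.

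**Figure D2:**
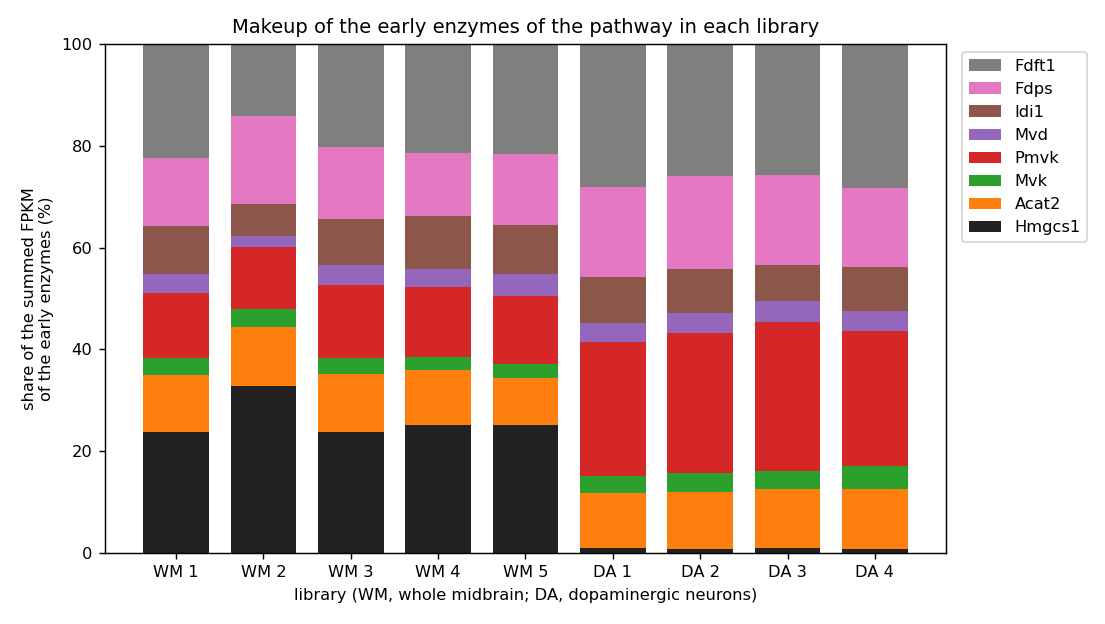
Share of each early enzyme in the summed FPKM of the 8, in percent, for each library (WM, whole midbrain; DA, dopaminergic neurons). The black segment, Hmgcs1, takes 23.7% to 32.8% of whole midbrain bars and under 1% of dopaminergic ones, while the Pmvk segment is wider in every dopaminergic bar.

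The promoter sequences of Hmgcs1 and of 3 early enzymes that rose are shown because these enzymes of 1 pathway differ in direction while their promoters share CCAAT boxes. The 3 were chosen among those with a CCAAT match, and Acat2, which comes just before Hmgcs1 and also rose, has none. Pmvk, which also rose and has a match, is not shown. Promoters from RefSeq (GRCm38.p6, 250 bases before and 50 after the start) matched 24 of the 28 members, and Sqle, Fdps, Fdft1 and Stard4 had none in the table. On either strand, CCAAT occurred in a promoter of 20 of these 24 genes and of 41.1% of the 27025 genes in the table. GGGCGG, the core of the Sp1 site, occurred in 22 of 24 against 38.2%, and CACGTG, an E-box, in 6 of 24 against 8.09%. TCACNCCAC, a form of the sterol regulatory element that SREBP binds, occurred in 1 of 24, Hmgcs1, and in 1.44% of all genes. The genes with promoters were not limited to those tested here, as the members are, so these shares do not compare members with other expressed genes. A gene can have several promoters, and these members have 34. Counted per promoter, CCAAT occurred in 21 of the 34 and in 37.4% of all 32851 promoters. GGGCGG occurred in 26 against 35.7%, CACGTG in 7 against 7.15% and TCACNCCAC in 1 against 1.24%. GGGCGG can share letters with a reversed CCAAT, and in the stretches shown no CCAAT match overlapped a TCACNCCAC match. A match is a run of letters and not a measured site. The 150 bases before the start are given 5′ to 3′ on the gene's strand, with CCAAT in either orientation and TCACNCCAC in capitals. They lie at chr13:119690201-119690350 (plus strand) for Hmgcs1, chr5:114444119-114444268 (plus) for Mvk, chr8:122443423-122443572 (minus) for Mvd and chr13:8885456-8885605 (plus) for Idi1.
Hmgcs1: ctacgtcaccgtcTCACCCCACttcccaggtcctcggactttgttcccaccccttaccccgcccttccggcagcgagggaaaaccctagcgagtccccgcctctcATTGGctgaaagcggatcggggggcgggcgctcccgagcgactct
Mvk: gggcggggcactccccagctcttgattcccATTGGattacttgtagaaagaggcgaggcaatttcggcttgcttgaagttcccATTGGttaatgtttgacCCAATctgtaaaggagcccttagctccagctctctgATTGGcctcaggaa
Mvd: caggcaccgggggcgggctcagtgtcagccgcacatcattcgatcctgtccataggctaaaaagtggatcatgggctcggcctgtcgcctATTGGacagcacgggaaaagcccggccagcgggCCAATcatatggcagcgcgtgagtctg
Idi1: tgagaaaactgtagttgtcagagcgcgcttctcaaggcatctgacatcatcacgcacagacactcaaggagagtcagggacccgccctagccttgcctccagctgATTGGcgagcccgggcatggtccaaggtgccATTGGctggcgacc
The Hmgcs1 stretch has 1 CCAAT match, reversed, and 1 TCACNCCAC match that begins 137 bases before the start. Mvk has 4 CCAAT matches and Mvd and Idi1 have 2 each.

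The late enzymes changed less. Of the 10, 5 rose, 1 fell and 4 did not pass, with a median change of 0.18, and as TPM none rose and 5 fell. Over all genes 38.3% rose and 36.0% fell as deposited, and as TPM 15.9% rose and 59.1% fell. The median of the late enzymes stood 0.14 above that of all genes as deposited and 0.09 above it as TPM. It stood 0.03 above it under quantile normalization and 0.05 above it at a minimum mean of 5 FPKM, which tested 9 of the 10. Their summed level was 176 ± 16.2 FPKM in whole midbrain and 201 ± 10.1 in dopaminergic neurons. Sqle, squalene epoxidase, the first oxygen-dependent step and a control point of the pathway, was at 28.7, 28.7, 27.3, 27.0 and 30.4 in whole midbrain and at 49.3, 49.6, 52.6 and 51.7 in dopaminergic neurons. The libraries of each group lay close together and the groups did not meet. Its log2 change of 0.82 (SE 0.06, limma adjusted p = 1.3e-06) became 0.13 as TPM (adjusted p = 0.257). Lss, which closes squalene epoxide into lanosterol, rose by 0.37 and Tm7sf2, a sterol C14-reductase, by 0.62. Neither rise passed as TPM, where Lss stood at -0.27 and Tm7sf2 at 0.03. The exons of Lss share 381 of 10787 bases with 4930483K19Rik on the opposite strand. The exons of Tm7sf2 share 532 bases with Vps51 on the same strand, which stood at 13.3 ± 1.41 FPKM against 8.47 ± 1.87.

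Cyp51, the lanosterol 14-demethylase, was the late enzyme that fell. It was at 23.4, 30.5, 24.8, 24.9 and 24.8 FPKM in whole midbrain and at 18.1, 15.6, 18.3 and 17.8 in dopaminergic neurons, with no overlap. The log2 change was -0.53 (SE 0.09, limma adjusted p = 3.5e-04), and the gene was called lower in each alternative, between -1.23 and -0.45. Its exons share 166 bases with Akap9 on the opposite strand, which stood at 5.24 ± 0.289 against 19.6 ± 0.850.

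Msmo1, which removes the methyl groups at C4, did not pass, and its value rested on 1 library. It was at 41.0, 84.5, 39.5, 38.2 and 40.6 FPKM in whole midbrain and at 49.8, 48.4, 48.7 and 45.8 in dopaminergic neurons. All dopaminergic values lay above those of 4 whole midbrain libraries and below that of library 2. The log2 change was 0.05 (limma adjusted p = 0.827), it was called higher without whole midbrain library 2 (0.27, adjusted p = 2.6e-04), and it was called lower as TPM (-0.64). Nsdhl and Hsd17b7, which work with Msmo1 on the same methyl groups, rose by 0.31 and 0.44. The groups overlapped for both genes. Nsdhl, with an adjusted p of 0.0465, lost its call in 10 alternatives and turned to -0.36 in another, TPM. Hsd17b7 did not pass under upper-quartile scaling (0.23, limma adjusted p = 0.137) and turned to -0.20 as TPM. Ebp, the sterol isomerase, Sc5d, the sterol C5-desaturase, and Dhcr7, which makes cholesterol in the last step of 1 branch, had log2 changes of -0.12, -0.01 and -0.04 and did not pass. Their SEs were 0.18, 0.13 and 0.14, and their groups overlapped. As TPM all 3 were called lower, at -0.78, -0.70 and -0.72 (limma adjusted p = 0.00133, 0.00893 and 0.00299), and Ebp was also called lower after length correction (-0.37, adjusted p = 0.0483).

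**Figure D3:**
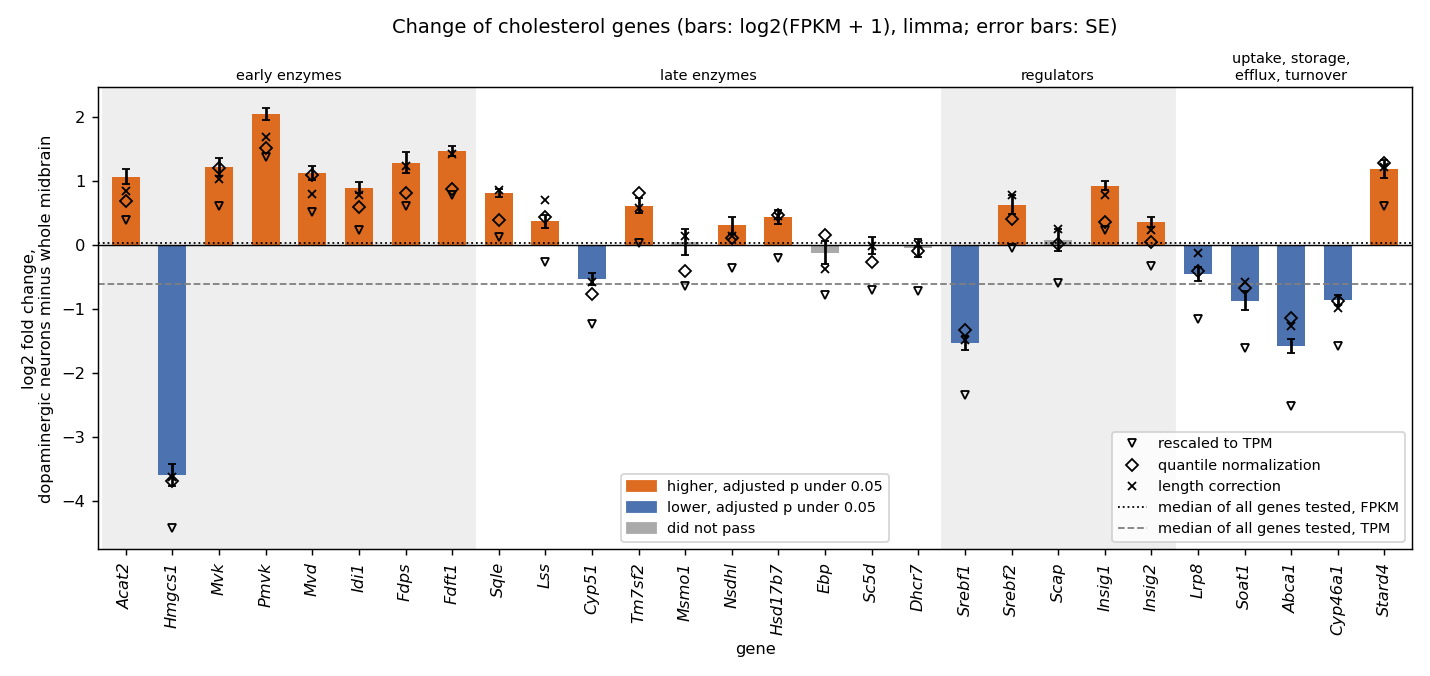
Log2 change of each gene, dopaminergic neurons minus whole midbrain, on log2(FPKM + 1), by role (bars, limma; error bars, SE; colours, direction of the call), with the value after rescaling to TPM (triangles), quantile normalization (diamonds) and length correction (crosses). The lines mark the median of all genes tested, 0.04 as FPKM and -0.60 as TPM. Hmgcs1 is lower at -3.59, and in each scaling shown it lies below the other 27 genes.

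Among the regulators, 3 of 5 rose and 1 fell, where 38.3% and 36.0% of all genes did. As TPM none rose and 3 fell, where 15.9% and 59.1% of all genes did. Under both quantile normalization and upper-quartile scaling 1 rose and 1 fell. Of all genes 38.1% rose and 31.3% fell under quantile normalization, and 29.5% and 43.3% under upper-quartile scaling. The median change of the regulators, relative to that of all genes, was 0.32 as deposited and -0.06 under quantile normalization. The SREBP genes differed in direction. Srebf1, which encodes SREBP-1, known mainly for fatty acid genes (chromosome 11, 60199089 to 60220604, minus strand), was at 9.80, 10.1, 9.42, 8.59 and 9.15 FPKM in whole midbrain and at 1.95, 3.31, 2.43 and 2.85 in dopaminergic neurons. The groups were well apart, a 3.57-fold difference (log2 change -1.53, SE 0.11, limma adjusted p = 7.2e-07). Srebf2, which encodes SREBP-2, known mainly for cholesterol genes, was at 17.3, 10.1, 16.2, 15.9 and 16.5 against 23.7, 19.5, 26.6 and 25.4. All dopaminergic libraries were higher, and whole midbrain library 2 was the lowest of its group. The log2 change of Srebf2 was 0.63 (limma adjusted p = 0.00378), and it did not pass under quantile normalization (0.41), upper-quartile scaling (0.40) or as TPM (-0.04). The ratio of Srebf2 to Srebf1 within a library was 1.77, 1.0, 1.72, 1.85 and 1.81 in whole midbrain and 12.2, 5.89, 10.9 and 8.92 in dopaminergic neurons. It was 5.75-fold higher in dopaminergic neurons (exact two-sided permutation test over the libraries, p = 0.0159, adjusted p = 0.0159 over the 2 ratios tested, the smallest p this design allows). Rai1, whose exons share 109 bases with Srebf1 on the opposite strand, was higher in dopaminergic neurons (26.2 ± 3.19 against 6.95 ± 1.18).

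Insig1 and Insig2 encode the proteins that keep SCAP and SREBP in the endoplasmic reticulum, and Insig1 is itself a target of SREBP. Insig1 (chromosome 5, 28071412 to 28078662, plus strand) was at 41.7, 42.3, 40.5, 45.9 and 43.5 FPKM in whole midbrain and at 75.7, 80.1, 88.5 and 85.8 in dopaminergic neurons. It ranked 3 among the 28 genes in both groups. Insig2 was at 22.5, 21.4, 24.4, 25.7 and 24.1 against 29.9, 27.8, 30.8 and 33.6, a smaller shift without overlap. The log2 changes were 0.93 and 0.36 (limma adjusted p = 1.3e-06 and 0.00220). As TPM Insig1 stood at 0.24 (adjusted p = 0.0680) and Insig2 at -0.33 (adjusted p = 0.0462). The ratio of Insig1 to Insig2 was 1.66 to 1.98 in whole midbrain and 2.53 to 2.88 in dopaminergic neurons, 1.49-fold higher (exact two-sided permutation test, p = 0.0159, adjusted p = 0.0159 over the 2 ratios, the smallest possible). Scap, the escort of SREBP, shares 985 of its 7443 exonic bases with 5830462I19Rik on the opposite strand. It had a log2 change of 0.08 and did not pass (limma adjusted p = 0.684). Whole midbrain library 2 held 18.7 FPKM of Scap where the others held 9.73 to 11.2, and without it Scap was called higher (0.24, adjusted p = 0.0308). As TPM it was called lower (-0.59, adjusted p = 0.00111).

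**Figure D4:**
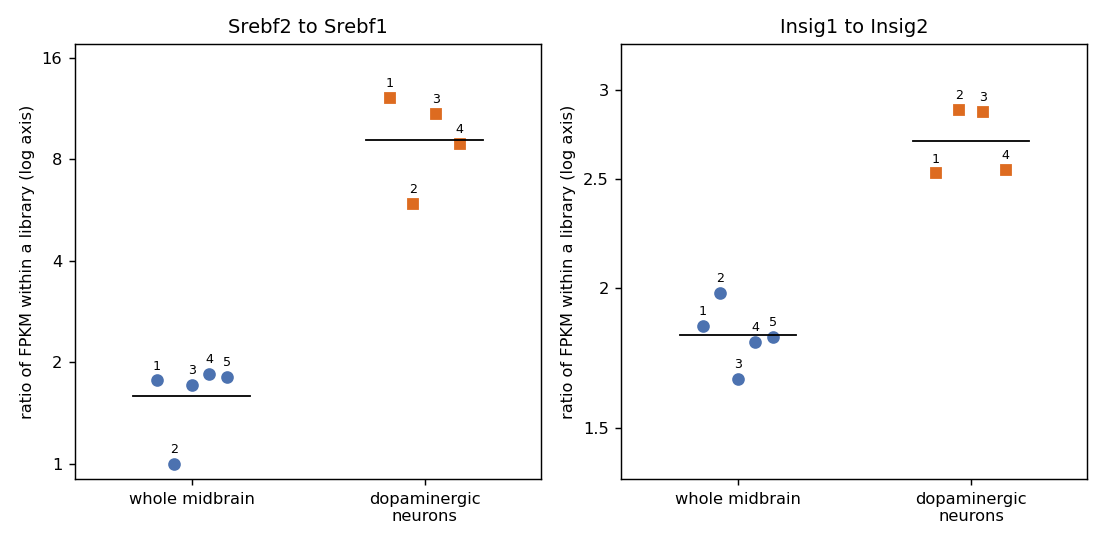
Ratio of FPKM within each library, on log axes, for Srebf2 to Srebf1 and for Insig1 to Insig2 (points, libraries with their numbers; black lines, geometric means). Dopaminergic libraries lie at 5.89 to 12.2 and 2.53 to 2.88, above every whole midbrain library at 1.0 to 1.85 and 1.66 to 1.98.

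Of the 5 genes of uptake, transport, storage, efflux and turnover, 4 fell and 1 rose, both as deposited and as TPM. Over all genes 36.0% fell and 38.3% rose as deposited, and 59.1% and 15.9% as TPM. The median change of the 5 was -0.86, or -0.90 relative to that of all genes and -0.98 relative to it as TPM. After length correction 3 fell and 1 rose, where 34.0% and 39.1% of all genes did, and the median was -0.65 relative to that of all genes. Abca1, the pump that loads cholesterol onto apolipoproteins (chromosome 4, 53030789 to 53159895, minus strand), was at 5.45, 3.81, 5.24, 5.2 and 5.09 FPKM in whole midbrain and at 0.842, 1.04, 0.902 and 1.16 in dopaminergic neurons. It was the lowest of the 28 genes there, 5.04-fold below whole midbrain (log2 change -1.58, SE 0.11, limma adjusted p = 4.4e-07). Soat1, which esterifies cholesterol for storage, was at 8.74, 4.8, 8.03, 8.29 and 8.76 against 3.81, 3.98, 3.86 and 3.17. Library 2 was the lowest of whole midbrain and still above every dopaminergic library. The log2 change of Soat1 was -0.87 (limma adjusted p = 4.8e-04).

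Cyp46a1 encodes cholesterol 24-hydroxylase, the neuronal enzyme that turns cholesterol into the form that leaves the brain (chromosome 12, 108334381 to 108362234, plus strand). It was at 14.7, 14.7, 15.1, 16.2 and 13.7 FPKM in whole midbrain and at 7.59, 7.0, 8.60 and 7.93 in dopaminergic neurons. The dopaminergic libraries held 52.3% of the whole midbrain mean (log2 change -0.86, SE 0.08, limma adjusted p = 3.6e-06). Lrp8, a receptor for reelin and apolipoprotein E particles, fell from 10.2 ± 1.58 to 7.15 ± 0.451 (log2 change -0.45). Its highest dopaminergic library, at 7.57, was just under whole midbrain library 2, at 7.60, and the call did not pass after length correction (-0.13, limma adjusted p = 0.179). Stard4, a soluble carrier that moves cholesterol between membranes, was the 1 that rose. It was at 3.96, 3.89, 4.29, 5.16 and 5.83 FPKM in whole midbrain and at 13.8, 9.04, 12 and 12.5 in dopaminergic neurons, 2.56-fold higher (log2 change 1.19, SE 0.14, limma adjusted p = 2.3e-05).

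Markers of other cells moved with the genes that fell. The summed level of the 11 astrocyte markers was 1300 to 1493 FPKM in whole midbrain and 177 to 211 in dopaminergic libraries, and that of the 15 oligodendrocyte markers 2917 to 3447 and 184 to 309. The 10 microglial markers summed to 159 to 201 and 18.9 to 26.3, the 9 vascular markers to 115 to 162 and 2.16 to 3.69, and the 7 markers of other neurons to 379 to 422 and 62.5 to 75.4. Flt1 was under 0.1 FPKM in every dopaminergic library. The part of these cells in the falls of Hmgcs1, Abca1, Srebf1 and Soat1 was not tested. In bulk RNA fewer cells of a type and less RNA per cell cannot be told apart.

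Related pathways were read from lists of genes outside the 28. Of 20 tested genes of sterol uptake, transport, efflux and oxysterols, 11 fell and 4 rose, with a median of -0.41. Apoe, the main lipid carrier of the brain, fell from 396 ± 34.2 to 14.9 ± 5.85 FPKM, and Cyp27a1, sterol 27-hydroxylase, from 6.23 ± 1.05 to 0.292 ± 0.119. Apoe is also on the astrocyte list. Of 14 genes of fatty acid synthesis, many of them known targets of SREBP-1, 10 fell and 1 rose (median -0.76). The stearoyl-CoA desaturases led, with Scd1 at 11.2 ± 1.92 against 92.4 ± 10.2 and Scd2 at 72 ± 4.87 against 356 ± 71.5. As deposited 36.0% of all genes fell and 38.3% rose. As TPM these lists held 16 and 13 falls, with 1 rise and none, where 59.1% of all genes fell and 15.9% rose.

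Of 10 genes that process SREBP or turn over its regulators, 6 fell and 2 rose (median -0.28), where 36.0% and 38.3% of all genes did. After length correction, which could test 9, 3 fell and 1 rose, where 34.0% and 39.1% of all genes did. Erlin1, which acts in the degradation of sterol-regulated proteins, was at 2.77 ± 0.252 FPKM against 5.40 ± 0.875, a log2 change of -0.76. In the isoprenoid branch, which leaves the pathway at farnesyl pyrophosphate, 6 of 14 rose and 1 fell, while as TPM none rose and 9 fell. These rises as deposited and falls as TPM were near the shares over all genes, 38.3% and 59.1%. Rabggtb, a subunit of Rab prenyltransferase, was at 103 ± 3.22 against 60.3 ± 10.6 and Ggps1, geranylgeranyl pyrophosphate synthase, at 42.0 ± 2.94 against 25.7 ± 6.69. Both calls ended under quantile normalization and as TPM. Of 9 electron donors and helpers of the sterol enzymes 6 rose and 2 fell, where 38.3% and 36.0% of all genes did. As TPM 1 rose and 3 fell, where 15.9% and 59.1% of all genes did. Under quantile normalization 3 rose and 2 fell, as they did after length correction, which could test 7. Of all genes 38.1% rose and 31.3% fell under quantile normalization, and 39.1% and 34.0% after length correction. Cyb5r3, cytochrome b5 reductase, was at 109 ± 6.61 against 49.1 ± 1.11. Lbr, a nuclear envelope protein with sterol C14-reductase activity, as Tm7sf2 has, fell from 6.45 ± 0.679 to 0.998 ± 0.255, a log2 change of -1.90 (limma adjusted p = 1.4e-07).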

How the data were processed

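Libraries were prepared from DNase-treated, amplified nanogram RNA and read single-end, per the labels' protocols. The deposited values are FPKM made by the authors, with TopHat2 2.0.8, Cufflinks 2.1.1 and mm10 named in the submitters' processing notes. Annotation, options and strand setting: not given in the sources used here. FPKM as deposited carry at most 6 significant digits in dopaminergic libraries and more in whole midbrain, and this difference in form coincides with the groups. For genes averaging 1 FPKM or more, limma 3.58.1 (R 4.3.3) was fitted to log2(FPKM + 1) of all 9 libraries, unscaled, allowing the variance to depend on the mean (two-sided test, 7 residual and 3 prior degrees of freedom). The fit was tested on simulated data with independent noise for each gene, which does not cover shifts shared across the genes of a library. Lengths and exon overlaps (at least 100 bases named) came from GENCODE M21 (GRCm38, the assembly of mm10), matched by symbol and position for 22540 rows. Depth assumed fragments of 200 bases. Coordinates count from 1. Exact tests were run in SciPy 1.17.1, tables were made with pandas 2.3.3 and NumPy 2.4.6 (Python 3.11.15), and plots with matplotlib 3.10.9. The named genes are the 28 members, up to 2 called genes with the largest change of each related list, label checks, and genes with overlapping exons. A gene that this rule names is not reported here. The members and lists were chosen with earlier results of these data known. Alternatives were other pseudocounts, filters and scalings, no trend, library weights, a replicate block, length correction by loess, and each library left out.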

Additional observations from a re-analysis of the deposited data

Results flagged for a closer look

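A sample far from the rest of its group, by Dixon's criterion, was found in 12 of 60 groups (28 genes and 2 ratios in each group of libraries), where chance gives about 1 in 20. Of these, 10 were whole midbrain library 2. It was high for Msmo1 at 84.5 FPKM (the others 38.2 to 41.0), Hmgcs1 at 87.4 (47.8 to 52.5), Fdps at 46.1 (24.5 to 29.2), Cyp51 at 30.5 (23.4 to 24.9) and Scap at 18.7 (9.73 to 11.2). It was low for Sc5d at 15.1 (22.8 to 24.9), Srebf2 at 10.1 (15.9 to 17.3), Soat1 at 4.8 (8.03 to 8.76) and Abca1 at 3.81 (5.09 to 5.45), and for the ratio of Srebf2 to Srebf1 at 1.0 (1.72 to 1.85). Among dopaminergic libraries, library 3 was high for Mvd at 18.8 (16.8 to 16.9) and library 2 low for Cyp51 at 15.6 (17.8 to 18.3). The cause of these values was not tested.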

How the results depend on the processing

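Rescaling to TPM changed the most: 2069 genes rose and 7668 fell over all genes (5014 and 4717 as deposited), and 7 members rose and 13 fell, with a median of -0.30. Members whose sign turned as TPM were Lss (-0.27), Msmo1 (-0.64), Nsdhl (-0.36), Hsd17b7 (-0.20), Srebf2 (-0.04), Scap (-0.59) and Insig2 (-0.33). A minimum mean of 5 FPKM tested 8669 genes, of which 2493 fell. Upper-quartile scaling called 3872 genes higher and 5673 lower. Other turned signs belonged to members that did not pass: Msmo1 (-0.41 quantile, -0.18 upper-quartile), Ebp (0.16 quantile, 0.01 library weights), Scap (-0.14 upper-quartile), Sc5d (0.06 median centring), Dhcr7 (0.03 median centring, 0.02 length correction). With each library left out in turn the ranges were -0.01 to 0.27 for Msmo1, -0.13 to 0.04 for Sc5d, -0.12 to 0.12 for Dhcr7 and -0.23 to 0.01 for Ebp, and 15 to 18 members rose while 7 fell. Of all genes 35.7% to 43.6% rose and 34.1% to 38.4% fell in these settings. The cause was not tested. Same-numbered libraries of the groups did not vary together (correlations -0.0498 to 0.0190 over genes). Such correlations cannot tell whether the numbers pair the libraries, and the labels name no pairing. With a replicate block 16 members rose and 7 fell, where 34.7% and 33.2% of all genes did, and Sc5d stood at 0.04. The differences in log2 ratio were then 2.57 (Srebf2 to Srebf1) and 0.57 (Insig1 to Insig2), with an exact p of 0.125, the smallest that 4 pairs allow. As TPM, Ebp, Sc5d, Dhcr7, Scap and Msmo1, which did not pass as deposited, were called lower. Depth is an estimate for dopaminergic libraries and unknown for whole midbrain, and FPKM keep no counting error.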
